A study of Drosophila melanogaster with 20 samples.

Results

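The genes described here encode the subunits of the vacuolar proton pump (V-ATPase) of Drosophila melanogaster, measured in dissected brains. They were chosen by name: every gene whose symbol starts with Vha and that has a probe set annotated with that symbol alone. This gave 31 genes on 32 probe sets, among 18769 probe sets that are not controls. Where a gene had more than 1 probe set, the one with the highest mean signal over all 20 arrays was used. Of the 31 genes, 18 lay above their array's median signal on at least 5 of the 20 arrays and were tested, and 13 fell below this filter.

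The arrays were Affymetrix Drosophila 2 expression arrays, with total RNA as the extracted molecule and biotin as the label, 1 sample per array. Brains came from wild-type flies (line 5905) and from flies null for the microRNA miR-34 (line 0110), aged naturally to 3 d or 20 d, which makes 4 groups of 5 arrays. All flies were kept at 25 °C on the same food. Since every genotype is a single line by its label, the effect of miR-34 and that of the line's other alleles cannot be told apart. The labels do not give the sex of the flies or how many brains went into a sample, and they do not state that replicate arrays hold RNA of separate flies, so the p-values rest on a spread between samples that could be technical only. The microRNA itself was not analysed here.

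The V-ATPase is a rotary enzyme that uses ATP to move protons into organelles. Its V1 sector sits in the cytosol, holds the A and B subunits that bind ATP, and turns a central shaft of D and F subunits, held in place by stalks of C, E and G subunits and regulated by the H subunit. Its V0 sector lies in the membrane, where a ring of c subunits rotates against subunit a, which forms the proton path. In neurons the pump acidifies lysosomes and also energises the loading of synaptic vesicles with transmitter.

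Signals are in arbitrary units, and every array had the same trimmed mean of 150 units. The median array signal was 19.1 to 21.3 units in 3 d wild type, 23.3 to 25.0 in 20 d wild type, 20.8 to 21.8 in 3 d null and 21.1 to 23.1 in 20 d null. Arrays of a group correlated at 0.989 to 0.997 across the 9806 probe sets tested, and those of different groups at no more than 0.971. Summed signals of 5 neuron markers were 5728 to 6119 units in 3 d wild type and 5281 to 6299 in 3 d null, so brain markers were present in both lines. The tracheal markers btl, serp and verm stayed under 20 units on average. The sum of 4 markers of the Malpighian tubule, an organ rich in this pump, lay between 642.7 and 726.9 units over all arrays, though at 3 d Irk3 and Drip were called higher in null and Prip lower, at -0.28. Irk3 alone had group means of 472 to 542 units, so this sum mostly follows 1 gene and cannot show equal tubule content. Midgut markers differed between the groups: the sum of 5 digestive protease genes was 2000 to 2100 units in 3 d null, against 130.3 to 146.9 in 3 d wild type, 51.27 to 64.22 in 20 d wild type and 62.63 to 80.71 in 20 d null.

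The tested genes covered most parts of the pump. They comprised 8 of the 11 V1 genes with a probe set, 8 of the 18 V0 genes and both accessory genes. Mean signals exceeded 800 units in 15 of them, while Vha36-3, Vha100-2 and VhaM9.7-c lay lower. The A subunit, which splits ATP, was represented by Vha68-3 alone, which lay below the filter, and its paralogs Vha68-1 and Vha68-2 were not analysed here.

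**Figure D1:**
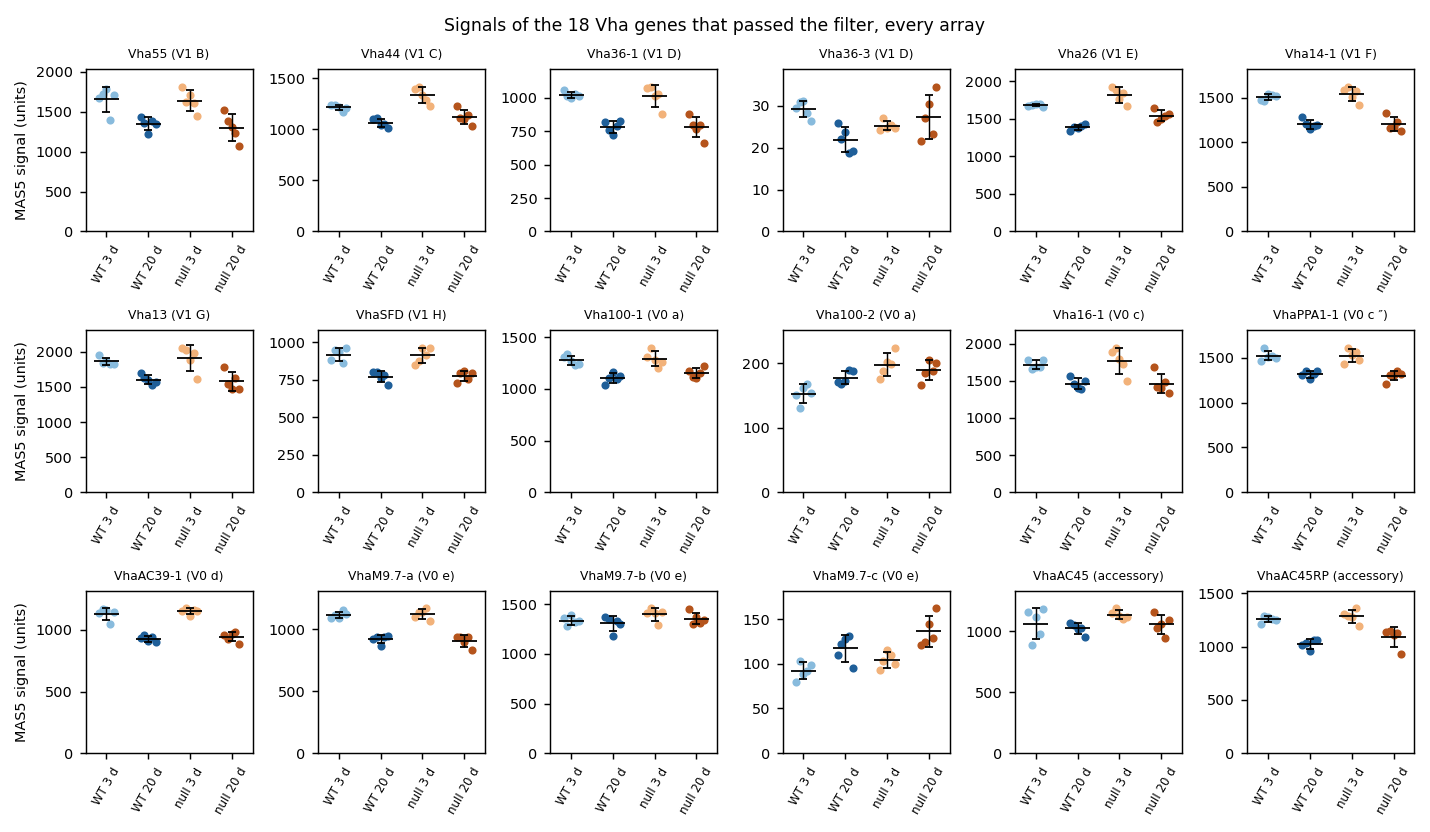
MAS5 signal in arbitrary units (linear axes from 0) of the 18 Vha genes that passed the filter, 1 panel per gene with its sector and subunit. Points are the 5 arrays of each group (WT, wild type; null, miR-34 null), lines are group means and bars are SD. In most panels both 20 d groups sit below both 3 d groups, whereas VhaM9.7-c goes the other way.

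The first comparison asked how the pump's genes change with age in wild-type brains. Transcript signals fell for 14 of the 18 tested Vha genes and rose for 2, where 24.8% of all tested probe sets were called lower and 30.7% higher. Every V1 gene tested fell, 8 of 8, and 5 of 8 V0 genes fell, together with 1 of the 2 accessory genes. The median log2 fold change was -0.27 for V1, -0.20 for V0 and -0.24 for all 18, against 0.02 for all probe sets. Single changes ran from -0.38 for Vha36-1 to 0.29 for VhaM9.7-c. A call here is an adjusted p under 0.05 in limma with Benjamini-Hochberg adjustment over all 9806 probe sets, and fold changes are on the log2(signal + 16) scale, which understates changes of low signals.

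In 13 of the 18 genes the 5 arrays at 20 d all lay below the 5 at 3 d, a separation seen in 19.5% of all probe sets, and in none did they all lie above, a pattern that 24.8% of all probe sets showed. In miR-34 null brains the same comparison gave 13 genes lower and 1 higher, where 26.0% of all tested probe sets were lower and 32.0% higher. Groups separated downward for 7 genes, against 16.4% of probe sets, and upward for 1, against 23.1%. The median was again -0.24, with -0.26 for V1 and -0.19 for V0. The 2 ageing comparisons share no arrays, but 1 fit over all 20 arrays gave both the same estimate of the spread. In both, 13 of the 18 genes were called lower, as were 1746, or 17.8%, of all probe sets. The share called lower in both among probe sets with strong signals was not counted. In bulk tissue, fewer cells of a type and less RNA per cell cannot be told apart.

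**Figure D2:**
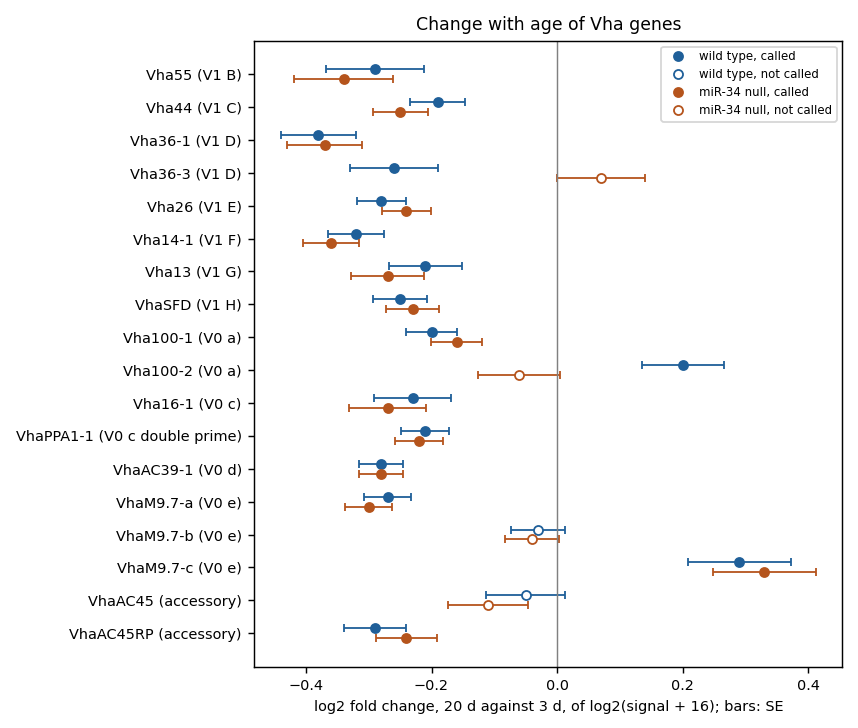
Log2 fold change of log2(signal + 16) from 3 d to 20 d for the 18 tested Vha genes, in wild type and in miR-34 null, with SE bars and filled points for adjusted p under 0.05. Most points lie between -0.38 and -0.16, VhaM9.7-c lies at 0.29 and 0.33, and Vha36-3 and Vha100-2 were called in wild type alone, with an interaction called for Vha36-3.

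Strong probe sets in general fell with age on these arrays, and most Vha genes are strong. Above a mean of 800 units, a limit set after the values were seen, 59.8% of 1063 probe sets were called lower in wild type and 56.8% in null. Among the 15 Vha genes above that limit, 13 were lower in each genotype. Their median change was -0.25 in both, while the strong probe sets had a median of -0.15 in wild type (quartiles -0.25 and -0.05) and -0.14 in null (quartiles -0.23 and -0.04). The median strong Vha gene thus sat at, or just below, the lower quartile of its signal class. After quantile normalization the median of all strong probe sets was -0.03 in wild type and -0.02 in null, and that of the 15 strong Vha genes was -0.13 in both. Of the 1063 strong probe sets, 356 were then lower and 239 higher in wild type, and 330 and 261 in null. Of the 15 strong Vha genes, 7 were lower and 1 higher in wild type, and 10 and 1 in null. With that scaling 8 of the 18 genes were lower and 1 higher in wild type, with a median of -0.10, and in null 11 were lower and 2 higher with a median of -0.12. By sector these were 5 of 8 V1, 2 of 8 V0 and 1 of 2 accessory genes lower in wild type, and 7 of 8 V1, 4 of 8 V0 and 0 of 2 accessory genes lower in null.

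**Figure D3:**
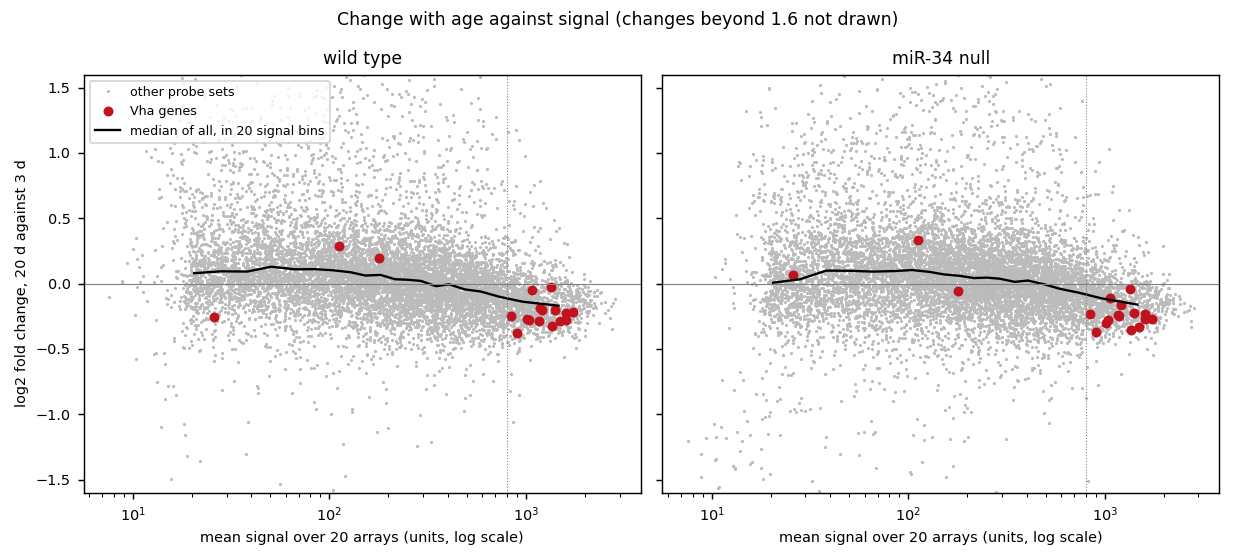
Log2 fold change from 3 d to 20 d against mean signal over 20 arrays (log axis, units) for all tested probe sets in grey and Vha genes in red, in wild type and in miR-34 null. The black line is the median in bins of signal, and the dotted line marks 800 units. Beyond that line the grey median lies below 0, with -0.15 and -0.14 over all strong probe sets, and most Vha genes lie lower still, with a median of -0.25.

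Among the V1 genes, Vha36-1 and Vha14-1 of the central shaft had the largest declines in both genotypes. Vha36-1, a D subunit of the shaft, read 1056, 1011, 1001, 1027 and 1013 units on the 5 arrays of 3 d wild type and 818, 762, 720, 788 and 824 at 20 d. The 2 ages did not overlap, and the mean fell by 23.4%, a log2 fold change of -0.38 ± 0.0594 (SE, adjusted p = 9.34e-06 by limma). Null brains gave 1074, 1083, 1014, 1025 and 879 units at 3 d and 879, 794, 770, 800 and 664 at 20 d, with a log2 fold change of -0.37 ± 0.0594 (adjusted p = 1.13e-05 by limma). There the lowest 3 d array met the highest 20 d array.

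Vha14-1 encodes subunit F, the other part of the shaft. Its wild-type signals were 1474, 1462, 1543, 1531 and 1524 units at 3 d and 1282, 1204, 1144, 1186 and 1199 at 20 d. In null they were 1588, 1623, 1513, 1574 and 1416 at 3 d and 1326, 1165, 1166, 1229 and 1122 at 20 d. No 20 d array reached any 3 d array in either genotype. The log2 fold changes were -0.32 ± 0.0441 in wild type and -0.36 ± 0.0441 in null (adjusted p = 1.48e-06 and 2.86e-07 by limma).

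Vha55 encodes subunit B, which binds nucleotide beside the catalytic A subunit. Its arrays spread more than those of the shaft genes: 1669, 1724, 1780, 1391 and 1711 units in 3 d wild type, and 1440, 1357, 1222, 1382 and 1344 at 20 d. Because of the fourth 3 d array, the ages overlapped. In null the values were 1814, 1617, 1715, 1609 and 1450 at 3 d and 1522, 1380, 1303, 1231 and 1077 at 20 d, which also overlapped. The declines were called, at -0.29 ± 0.0782 in wild type and -0.34 ± 0.0782 in null (adjusted p = 0.00333 and 0.000872 by limma). After quantile normalization the wild-type value of Vha55 was -0.14 and was not called (adjusted p = 0.0654).

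The peripheral stalk genes Vha26 (subunit E), Vha13 (subunit G) and Vha44 (subunit C) fell in both genotypes. For Vha26, wild-type arrays gave 1674, 1682, 1699, 1704 and 1664 units at 3 d (SD 16.8) and 1340, 1388, 1376, 1400 and 1428 at 20 d. Null arrays gave 1929, 1883, 1762, 1845 and 1674 at 3 d and 1643, 1457, 1492, 1540 and 1571 at 20 d. The ages did not overlap in either genotype, with changes of -0.28 ± 0.0387 and -0.24 ± 0.0387 (adjusted p = 1.84e-06 and 1.55e-05 by limma).

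Vha13 read 1952, 1845, 1863, 1826 and 1833 units in 3 d wild type and 1697, 1630, 1597, 1530 and 1568 at 20 d, with no overlap. Null brains read 2060, 2019, 1884, 1988 and 1609 at 3 d and 1790, 1538, 1475, 1625 and 1473 at 20 d, where a single low 3 d array made the ages overlap. The changes were -0.21 in wild type and -0.27 in null (adjusted p = 0.00321 and 0.000361 by limma). Vha44, whose product leaves the complex when V1 and V0 come apart, read 1234, 1239, 1213, 1167 and 1208 units in 3 d wild type and 1096, 1111, 1042, 1053 and 1014 at 20 d. In null it read 1394, 1415, 1337, 1285 and 1223 at 3 d and 1224, 1107, 1097, 1142 and 1033 at 20 d, where the ages met at 1 unit's difference. It fell by 0.19 in wild type and by 0.25 in null on the log2 scale (adjusted p = 0.000907 and 4.74e-05 by limma). After quantile normalization Vha13 and Vha44 were not called in wild type, both at -0.06 (adjusted p = 0.0743 and 0.0959 by limma).

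VhaSFD encodes subunit H, which in yeast keeps a detached V1 sector from splitting ATP. Its signals were 883, 946, 933, 865 and 961 units in 3 d wild type and 800, 801, 760, 780 and 718 at 20 d. In null they were 852, 874, 965, 913 and 965 at 3 d and 731, 793, 806, 753 and 793 at 20 d. Both comparisons were free of overlap, with changes of -0.25 ± 0.0427 and -0.23 ± 0.0427 (adjusted p = 3.56e-05 and 6.54e-05 by limma).

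The V0 genes were less uniform. VhaAC39-1 encodes subunit d, which joins the shaft to the membrane ring. It gave 1135, 1169, 1162, 1045 and 1144 units in 3 d wild type and 931, 955, 908, 942 and 900 at 20 d. In null it gave 1151, 1174, 1109, 1165 and 1153 at 3 d and 962, 929, 969, 979 and 889 at 20 d. The ages were apart in both genotypes and the change was -0.28 ± 0.0351 in each (adjusted p = 3.61e-07 and 3.73e-07 by limma).

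Vha16-1 encodes the main proteolipid of the rotating ring. Wild-type arrays read 1778, 1653, 1686, 1683 and 1776 units at 3 d and 1564, 1459, 1404, 1390 and 1492 at 20 d, with no overlap. Null arrays read 1890, 1946, 1795, 1725 and 1492 at 3 d and 1681, 1410, 1398, 1478 and 1340 at 20 d, with overlap. Its changes were -0.23 ± 0.0616 and -0.27 ± 0.0616 (adjusted p = 0.00302 and 0.000611 by limma). A second Vha16-1 probe set, with a mean of 593.7 units, changed by -0.36 ± 0.118 in null (adjusted p = 0.012 by limma) but gave -0.15 ± 0.118 in wild type, which was not called (adjusted p = 0.295 by limma). When both probe sets of the gene were averaged, the wild-type decline was -0.19 with an adjusted p of 0.0514 by limma, and after quantile normalization of the main Vha16-1 probe set it was -0.08 (adjusted p = 0.0556).

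VhaPPA1-1, the c″ member of the ring, fell by 0.21 on the log2 scale in wild type and by 0.22 in null, from means of 1521 and 1520 units at 3 d to 1317 and 1299 at 20 d. The ages were apart in both genotypes (adjusted p = 8.26e-05 and 2.62e-05 by limma). Vha100-1 encodes the a subunit known for its role at synapses. It fell by 0.20 and 0.16 on the log2 scale, from 1276 ± 45.5 to 1107 ± 45.4 units in wild type and from 1291 ± 71.2 to 1152 ± 48.4 in null (SD, n = 5; adjusted p = 0.000207 and 0.00187 by limma). After quantile normalization the declines of VhaPPA1-1 and Vha100-1 were not called in either genotype, with log2 fold changes between -0.08 and -0.02.

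The 3 tested genes of the small e subunit went 3 ways. VhaM9.7-a fell, with 1088, 1116, 1087, 1153 and 1123 units in 3 d wild type and 920, 935, 867, 936 and 942 at 20 d. In null it read 1101, 1135, 1138, 1166 and 1064 at 3 d and 936, 935, 893, 933 and 829 at 20 d. The ages were apart in both genotypes and the changes were -0.27 ± 0.0371 and -0.30 ± 0.0371 (adjusted p = 1.45e-06 and 2.35e-07 by limma).

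VhaM9.7-b did not pass the test, with means of 1335 and 1309 units in wild type and 1398 and 1356 in null. Its changes were -0.03 (95% interval -0.12 to 0.06) and -0.04 (-0.13 to 0.05). The upper bounds reach small rises and the lower bounds stop short of the -0.27 and -0.30 of VhaM9.7-a. This gene's direction depended on scaling: after quantile normalization it was called higher at 0.11 in wild type and 0.10 in null, and with arrays centred on their median it was called lower at -0.19 in wild type.

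VhaM9.7-c was the Vha gene that was called higher with age in both genotypes. It read 79.6, 103, 88.7, 92.1 and 98.9 units in 3 d wild type and 110, 122, 128, 131 and 94.9 at 20 d, where 1 of the 20 d arrays fell among those at 3 d. Null arrays read 93.2, 103, 116, 110 and 99.5 at 3 d and 121, 124, 145, 129 and 162 at 20 d, with no overlap. The rises were 0.29 ± 0.0817 in wild type and 0.33 ± 0.0817 in null (adjusted p = 0.0044 and 0.00125 by limma). In wild type the call was lost after quantile normalization and after median centring, both at 0.13, with adjusted p of 0.174 and 0.14.

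The accessory gene VhaAC45RP fell, whereas its relative VhaAC45 was not called. In mammals, Ac45 proteins help assemble the V0 sector and guide the pump. VhaAC45RP gave 1213, 1283, 1282, 1259 and 1252 units in 3 d wild type and 1014, 1036, 956, 1065 and 1062 at 20 d. Null brains gave 1305, 1285, 1276, 1358 and 1193 at 3 d and 1133, 1142, 1108, 1131 and 926 at 20 d. Both comparisons were free of overlap, at -0.29 ± 0.0488 and -0.24 ± 0.0488 (adjusted p = 2.37e-05 and 0.000211 by limma). After quantile normalization the null value of VhaAC45RP was -0.10 and was not called (adjusted p = 0.0572).

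VhaAC45 varied widely in 3 d wild type, at 1153, 886, 1114, 976 and 1183 units (SD 126), against 1066, 1053, 1014, 1028 and 956 at 20 d. In null it read 1152, 1186, 1128, 1098 and 1112 units at 3 d and 1159, 1028, 1055, 941 and 1091 at 20 d. The ages overlapped in both genotypes. Its changes were -0.05 (95% interval -0.18 to 0.08) and, in null, -0.11 (-0.24 to 0.02). With arrays centred on their median the wild-type value was -0.20 and was called (adjusted p = 0.0064 by limma).

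Some arrays were low or high in many of the strong Vha genes at once. In 3 d null, replicate 5 was the lowest array in 9 of the 15 strong genes and replicate 2 the highest in 9. In 20 d null, replicate 1 was the highest in 10 and replicate 5 the lowest in 9. Such arrays deviated from their group means by -0.092 to 0.091 on average on the log2 scale. Leaving out any single array left 14 genes lower with age in wild type and 13 in null.

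Several markers of cell types were also called with age. Calls of lower made up 24.8% of all probe sets in wild type and 26.0% in null, and 59.8% and 56.8% of strong ones. Calls of higher made up 30.7% and 32.0% of all probe sets. Of 5 neuron markers, 3 were lower at 20 d in each genotype, and their summed signal was 4811 to 5157 units in 20 d wild type and 4345 to 5536 in 20 d null. Of 7 glial markers, 4 were lower in each genotype and 1 was higher in wild type. Their sums were 8649 to 8988 units at 3 d and 7258 to 7854 at 20 d in wild type, and 8340 to 9201 and 6995 to 7583 in null. Many neuron and glial markers have strong signals, and their counts lay near the strong share, so no loss of these cells is read from them. Haemocyte markers rose, 5 of 5 in each genotype, from sums of 406.3 to 446 units to 855 to 1012 in wild type and from 379.2 to 419.3 to 905.5 to 982.5 in null. Fat body markers rose in wild type for 6 of 6 tested, from 2575 to 2760 units to 3509 to 3671, and in null for 3 with 1 lower, from 2229 to 2333 units to 2632 to 2896. In null brains 4 of 6 muscle markers were lower at 20 d, with a median log2 fold change of -0.64. All 5 midgut markers were lower there too, with a median of -3.76, but the filter bears on this count. Outside 3 d null, Jon99Fi, Jon25Biii and betaTry read at most 4.7, 8.6 and 16.8 units, below every array's median. Without their high 3 d null signals these genes would have gone untested, so their fall in null was largely set by the filter. In wild type 3 midgut markers were lower and 2 higher, but no change is read from Jon99Fi, Jon25Biii and betaTry at such low signals. Of the muscle markers in wild type, 2 were lower and 3 higher. Photoreceptor markers gave 3 higher and 1 lower of 6 in wild type and 2 higher and 1 lower in null. The part of these shifts in the change of the Vha genes was not tested.

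The second comparison asked where the 2 lines differ in the pump's genes. In 3 d brains Vha100-2, Vha44 and Vha26 were higher in null, and no Vha gene was lower by limma. These were also the genes with an unadjusted p under 0.05. Calls of higher made up 15.4% of all probe sets and calls of lower 18.4%. The other 15 Vha genes were not called, with log2 differences from -0.13 to 0.15. The median difference over the 18 genes was 0.03, and that of all probe sets was -0.01.

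Vha100-2, a second a subunit gene, stood out. It read 151, 130, 162, 168 and 153 units in 3 d wild type and 176, 188, 201, 198 and 224 in 3 d null. All null arrays lay above all wild-type arrays, a separation that 11.5% of probe sets showed upward and 12.8% downward, and it was the 1 Vha gene to do so at this age. The difference was 0.34 ± 0.0652 (adjusted p = 0.000217 by limma). Vha44, at 1331 ± 78.5 units in null and 1212 ± 28.5 in wild type, differed by 0.13 ± 0.0439, and Vha26, at 1819 ± 102 and 1685 ± 16.8, by 0.11 ± 0.0387 (SD, n = 5; adjusted p = 0.0231 and 0.0345 by limma). The array values given above for both genes overlapped between the lines.

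Midgut markers were higher in the same arrays, as given above: all 5 were called higher in 3 d null, with a median log2 difference of 3.18. For Jon99Fi, Jon25Biii and betaTry that call was largely set by the filter, since they exceeded an array's median in 3 d null alone. The other midgut markers also lay above the array medians in 3 d wild type. Muscle markers were higher too, 6 of 6, with sums of 814.8 to 864.9 units against 357.9 to 380.9 in 3 d wild type, and 5 of 6 photoreceptor markers were lower. Their part in the differences of Vha100-2, Vha44 and Vha26 was not tested. With arrays centred on their median, Vha100-2 alone was called higher and Vha36-3 was called lower at -0.18. Without null replicate 1, or without null replicate 2, Vha100-2 was the only Vha gene called. The call of Vha44 was also lost without wild-type replicate 4 (adjusted p = 0.0619).

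**Figure D4:**
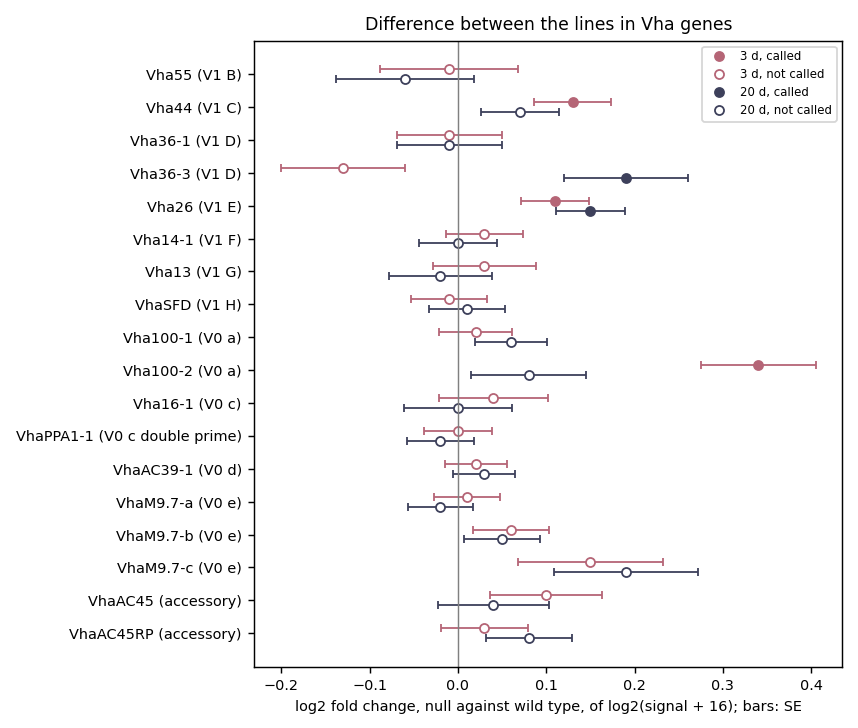
Log2 difference of log2(signal + 16), miR-34 null against wild type, for the 18 tested Vha genes at 3 d and at 20 d, with SE bars and filled points for adjusted p under 0.05. Most points lie within 0.10 of 0, and Vha100-2 at 3 d lies at 0.34.

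At 20 d, Vha26 and Vha36-3 were higher in null and no Vha gene was lower by limma. Of all probe sets, 20.9% were higher and 24.6% lower. An unadjusted p under 0.05 was reached by 3 Vha genes, the third being VhaM9.7-c at 0.19 ± 0.0817, which was not called (adjusted p = 0.0578 by limma). VhaM9.7-c was called after quantile normalization (0.24, adjusted p = 0.0134 by limma) and after median centring (0.26, adjusted p = 0.00645). It was also called without null replicate 1 or 2, or wild-type replicate 3 or 4, left out singly. The median difference over the tested Vha genes was 0.03. In the same comparison 5 of 6 photoreceptor markers were lower in null, with a median of -1.26, as were 5 of 6 fat body markers, with a median of -0.66. Of 6 muscle markers 4 were higher and 2 lower, and of 5 midgut markers 3 were called higher and 1 lower. The midgut markers Jon99Fi and betaTry read at most 4.7 and 14.7 units at 20 d, below every array's median. No difference is read from those 2 genes. The part of the markers in the differences of Vha26 and Vha36-3 was not tested.

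Vha26 was the 1 Vha gene called at both ages, but its 3 d call was lost when only the 3 d arrays were fitted (adjusted p = 0.0558), after median centring (0.374) and without any 1 of wild-type replicates 1, 2 and 5 and null replicates 1, 2 and 4. Its 20 d null arrays all lay above its 20 d wild-type arrays, as 15.3% of probe sets did (17.8% lay wholly below), and the difference was 0.15 ± 0.0387 (adjusted p = 0.00282 by limma). The 2 ages used different arrays, so the values are separate measurements of the same pair of lines. For Vha100-2, the difference at 20 d was 0.08 (95% interval -0.05 to 0.22) and was not called, with 170, 167, 173, 190 and 188 units in wild type and 166, 185, 205, 188 and 200 in null.

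Vha36-3, a weakly detected D subunit gene, gave 26, 22.2, 23.7, 18.7 and 19.2 units in 20 d wild type and 21.6, 27.2, 30.5, 23.4 and 34.6 in 20 d null. The lines overlapped, and the difference was 0.19 ± 0.0703 (adjusted p = 0.0309 by limma). That call was lost when only the 20 d arrays were fitted (adjusted p = 0.0843) and without any 1 of null replicates 3 and 5 and wild-type replicates 4 and 5. With arrays centred on their median, 8 Vha genes were higher in null at 20 d and none lower, and the median difference became 0.11. The median of all probe sets became 0.06 there, and 383 of 1063 strong probe sets were higher and 51 lower. Of the 15 strong Vha genes, 6 were higher and 0 lower.

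The third comparison, the interaction, asked whether the change with age differs between the lines. It was called for Vha36-3 alone, at 0.32 ± 0.0994 (change in null minus change in wild type, adjusted p = 0.0263 by limma), where 7.61% of all probe sets were called higher and 9.38% lower. In wild type Vha36-3 fell from 29.5, 30.9, 31.1, 28.3 and 26.4 units at 3 d to the 20 d values above, with no overlap and a log2 fold change of -0.26 ± 0.0703 (adjusted p = 0.00365 by limma). In null it read 24.3, 27.1, 24.7, 25.4 and 24.8 units at 3 d and its change was 0.07 (95% interval -0.08 to 0.21). The array median lies near these signals, at 19.1 to 25.0 units, so this gene sits close to the filter. Without null 20 d replicate 3, wild-type 20 d replicate 4 or wild-type 20 d replicate 5, the interaction was no longer called, with adjusted p of 0.0526, 0.0558 and 0.0534.

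Vha100-2 had the other interaction with an unadjusted p under 0.05. It rose with age in wild type by 0.20 ± 0.0652 (adjusted p = 0.0122 by limma), from 152.9 ± 14.5 to 177.5 ± 10.8 units, and in null, from 197.7 ± 17.7 to 188.9 ± 15, it changed by -0.06 (95% interval -0.19 to 0.08; SD, n = 5). After quantile normalization the null value was -0.15 and was called lower (adjusted p = 0.0331). The interaction was -0.26 ± 0.0922 and was not called (adjusted p = 0.0572 by limma). It was called after quantile normalization (adjusted p = 0.0477 by limma) and with the repeat numbers as a replicate block (adjusted p = 0.0134). The same held without null 3 d replicate 1, wild-type 3 d replicate 3 or 4, or null 20 d replicate 3 or 5. These arrays, left out singly, gave adjusted p from 0.0291 to 0.0492 by limma. The wild-type rise was lost without wild-type 3 d replicate 2 (0.15, adjusted p = 0.0509), after quantile normalization (0.09) and after median centring (0.04). The paralogs Vha36-1 and Vha36-3, and Vha100-1 and Vha100-2, thus had different calls with age within a genotype, but the difference between paralogs was not tested. For the other 16 tested genes the interaction lay between -0.06 and 0.05, with a median over all 18 of -0.02.

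The 13 genes below the filter were above their array's median on 0 of 20 arrays. They were the A gene Vha68-3, the D gene Vha36-2, the F gene Vha14-2, the a genes Vha100-3, Vha100-4 and Vha100-5, the ring genes Vha16-2, Vha16-3, Vha16-4, Vha16-5 and VhaPPA1-2, the d gene VhaAC39-2 and the e gene VhaM9.7-d. Outside Vha100-4 their highest signal on any array was 6.18 units. Vha36-2 read 2.83 to 5 units in 3 d wild type and 0.655 to 3.24 at 20 d, and in null 2.9 to 4.2 and 0.24 to 1.96. These values lie far below the array medians, so no change is read from them.

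Vha100-4 read 6.87, 4.85, 4.84, 4.67 and 4.93 units in 3 d null, against at most 1.01 in 3 d wild type and at most 0.553 at 20 d in either line. All 5 null arrays at 3 d thus lay above the other 15, though still below every array's median. How many other probe sets below the filter separate in this way was not counted. At such low signals no difference is read from it. In the gene order of the RefSeq annotation, Vha100-4 lies next to Vha100-2. The same 5 arrays had the high midgut markers, and the part of those markers in the Vha100-4 signal was not tested. Among the other members, Vha16-2 and Vha16-3 lie 2 genes apart, as do VhaPPA1-1 and VhaPPA1-2.

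Genes that act with the pump were read from lists of their own. Of 5 tested genes for its assembly, accessory parts and control, 1 rose and 2 fell with age in wild type and 1 rose and 4 fell in null, or 1 and 2 in null after quantile normalization. The shares over all probe sets were 30.7% and 24.8% in wild type and 32.0% and 26.0% in null. The gene that rose was Mitf, a transcription factor that in flies activates V-ATPase genes. Its mean went from 87.16 units at 3 d to 167.9 at 20 d in wild type and from 97.41 to 192.1 in null, changes of 0.83 ± 0.0399 and 0.87 ± 0.0399 (adjusted p = 1.11e-14 and 4.01e-15 by limma). After quantile normalization these were 0.70 and 0.74, and after median centring 0.68 and 0.84. Mitf rose and 13 of the 18 Vha genes fell in both genotypes. A link between them was not tested, and Mitf protein was not measured.

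The pump regulator rogdi fell by 0.32 in wild type and by 0.30 in null on the log2 scale, and Rbcn-3B fell by 0.35 in null. ATP6AP2, the prorenin receptor that is also a pump accessory protein, was higher in null by 0.15 at 3 d and by 0.20 at 20 d (adjusted p = 0.0397 and 0.00539 by limma), and at 3 d ATP6AP2 was not called with arrays centred on their median (0.10, adjusted p = 0.202). Its means were 1295 units at 3 d and 1087 at 20 d in wild type and 1446 and 1254 in null.

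Synaptic vesicle genes, whose transmitter transporters use the proton gradient, also fell. In wild type 14 of 16 were lower and 0 higher, with a median of -0.33, and in null 13 were lower and 0 higher, with a median of -0.29. Of all probe sets 24.8% and 26.0% were lower, and of strong probe sets 59.8% and 56.8%. Many of the 16 genes had mean signals above 800 units. The transporter gene for GABA, VGAT, fell furthest, by 0.57 and by 0.58 on the log2 scale, from means of 362.9 and 397.5 units to 239.3 and 260.8. After quantile normalization 14 and 11 of the 16 were lower, with medians of -0.21 and -0.17, where 356 and 330 of 1063 strong probe sets were lower. Of the 16, nSyb, VAChT and brp also stand in the list of neuron markers.

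Lysosomal genes, whose enzymes need the acid the pump provides, were called in wild type at close to the shares of all probe sets, 30.7% higher and 24.8% lower. In wild type 6 of 19 were higher and 4 lower, with a median of 0.06, and in null 8 were higher and 4 lower, with a median of 0.04. The wild-type split turned to 2 higher and 7 lower with arrays centred on their median, and became 10 and 4 after quantile normalization. Cln7, a lysosomal membrane transporter, rose by 0.64 ± 0.0786 in wild type and Cln3 fell by 0.47 ± 0.0575 on the log2 scale, while in null the largest rise was that of Ppt1 at 0.35 and the largest fall again that of Cln3 at -0.26. Between the lines, Cln7 was higher in null by 1.32 at 3 d and by 0.91 at 20 d.

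The other pump-related lists were also read against those shares, 30.7% higher and 24.8% lower in wild type and 32.0% and 26.0% in null. Of 11 genes of TORC1 signalling at the lysosome, a pathway that senses amino acids through the pump, 2 rose and 2 fell in wild type and 4 rose and 2 fell in null, with REPTOR up by 0.35 and 0.48 and slif, an amino acid transporter, down at -0.25 and -0.24. The group means of slif were 18.05 to 32.79 units, close to the array medians, so slif was weakly detected. The kinase gene S6k was higher in null by 0.47 at 3 d and by 0.44 at 20 d. Of 10 autophagy genes, 4 rose and 1 fell in each genotype, with Atg9 up by 0.31 in wild type and Atg8a down in both, at -0.16 and -0.23. Of 15 genes for proton, chloride and cation transport, 7 rose and 6 fell in wild type and 6 rose and 7 fell in null. The sodium pump subunit gene nrv1 rose furthest in wild type, at 0.48, the proton antiporter gene Nha2 rose furthest in null, at 0.68, and Nhe2 fell furthest in both, at -0.42 and -0.60. The carbonic anhydrase gene CAH2 was lower in null, at -1.19 at 3 d and -1.05 at 20 d. With arrays centred on their median, the wild-type counts became 0 and 4 for TORC1, 1 and 5 for autophagy, and 4 and 8 for ion transport.

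**Figure D5:**
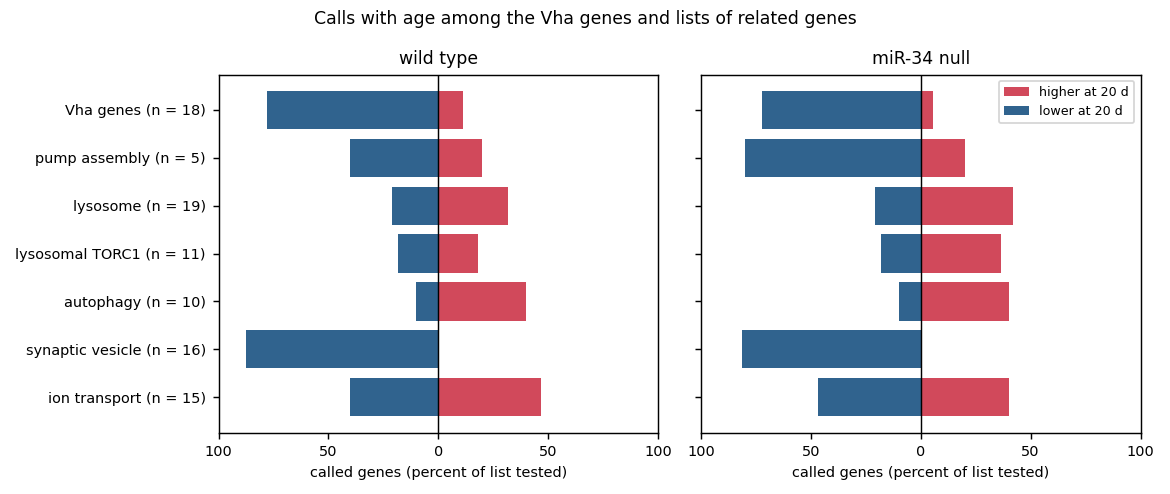
Percent of tested genes called higher (right) or lower (left) at 20 d than at 3 d, for the 18 Vha genes and 6 lists of related genes, in wild type and in miR-34 null, with the number tested in brackets. The Vha bar (14 and 13 of 18 lower) and the synaptic vesicle bar (14 and 13 of 16 lower) point mostly left, while the lysosome bar has 6 higher and 4 lower of 19 in wild type.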

How the data were processed

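The authors deposited 1 table of linear intensity values, with a column for every array. MAS5 and GCRMA are listed in the submitters' processing notes, and MAS5 output is named in the labels of each array. The deposited intensity values ran from 0.0116 to 4062, controls included, with a trimmed mean of 150 on every array (2% cut at each end), and were used without further normalization. Scanner settings are not given in the sources used here.

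Probe sets were named from the platform annotation where it gave 1 symbol. Of 18952, 183 controls were left out. Signals were analysed as log2(signal + 16), and probe sets above the array median on at least 5 of 20 arrays were kept (9806). All 20 arrays entered 1 limma fit (limma 3.58.1, R 4.3.3, eBayes with trend and robust) with 4 group means and 5 contrasts, each adjusted by Benjamini-Hochberg over all 9806. The fit was tested on simulated data. The number of arrays limits the precision. Alternatives were 2 other pseudocounts, no filter, quantile normalization, median centring, averaged probe sets, fits of the compared groups alone, a replicate block and leaving out each array.

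The members and the gene lists were chosen with earlier results of these data known, so patterns already seen in them are not independent support. Every Vha gene is named. Values of every array are given for those called with a change of at least 0.25 between 2 groups or called in the interaction, and VhaAC45 was added after its spread was seen. Other genes were named from each list only where they had its largest called rise or fall in a contrast, and not all such genes are printed. Irk3, Drip, Prip, Jon99Fi, Jon25Biii and betaTry were named after their values were seen. A planned search of promoters for the E-box that Mitf binds was not run, and no sequence is printed. RefSeq (Release 6 plus ISO1 MT) served for names and gene order only.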

Additional observations from a re-analysis of the deposited data

Results flagged for a closer look

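In 5 of 72 gene and group combinations, 1 array stood far from the other 4, with a gap over 0.71 of the group's range, and chance gives such a gap in about 1 of 20 groups. Wild type at 3 d had 2 of them, both in replicate 4: Vha55 read 1391 units there and 1669 to 1780 on the other arrays, and VhaAC39-1 read 1045 against 1135 to 1169. VhaM9.7-a read 867 units on replicate 3 of 20 d wild type, against 920 to 942. VhaM9.7-b read 1289 units on replicate 4 of 3 d null, against 1407 to 1458. VhaAC45RP read 926 units on replicate 5 of 20 d null, against 1108 to 1142. Without that array, VhaAC45RP was called higher in null at 20 d, by 0.13 (adjusted p = 0.00616 by limma).

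The change of Vha36-3 with age differed between the lines by 0.32 on the log2 scale, by a test of the difference itself. Vha100-4, below the filter, had a mean of 5.23 units in 3 d null, where no 3 d wild-type array exceeded 1.01. At such low signals no difference between the lines is read from it.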

How the results depend on the processing

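No called Vha gene changed sign under any alternative. Of the calls, 8 of 16 in wild-type ageing and 11 of 14 in null ageing held under every alternative, as did 1 of 3 at 3 d (Vha100-2), 1 of 2 at 20 d (Vha26) and 0 of 1 in the interaction. After quantile normalization, wild-type ageing gave 8 lower, 1 higher and a median of -0.10, null ageing 2 higher and a median of -0.12, the 3 d comparison 1 lower and the interaction 1 lower. Median centring moved the median of all probe sets to -0.14 in wild-type ageing, 0.06 between the lines at 20 d and 0.13 in the interaction. In wild-type ageing it gave 0 Vha genes higher, 16 lower and a median of -0.39, where 932 of 1063 strong probe sets were lower. At 3 d it gave 1 higher, 1 lower and a median turned to -0.02. At 20 d it gave 8 higher and a median of 0.11, where 383 of the strong probe sets were higher. The interaction median turned to 0.11. Fitting only the compared groups left 1 gene higher at 20 d and ended the 3 d call of Vha26 (adjusted p = 0.0558). Other pseudocounts and no filter changed no call of a Vha gene. The titles give repeat numbers without stating a pairing. Same-numbered arrays correlated above 0.1 in 2 to 4 of 5 pairs of a comparison. Single values ran from -0.184 between the lines at 3 d to 0.554 in null ageing. With the repeat numbers as a replicate block, the interaction had 1 gene lower, Vha100-2 (adjusted p = 0.0134), and VhaM9.7-c was called at 20 d (adjusted p = 0.0418). With 1 array left out at a time, counts and medians ranged as follows. At 3 d, 1 to 3 genes were higher and 0 lower, with medians of 0.01 to 0.06. At 20 d, 1 to 3 were higher and 0 lower, with medians of 0.02 to 0.04, and the count was 1 without null replicate 3 or wild-type replicate 5. Wild-type ageing gave 1 to 2 higher, 14 lower and medians of -0.26 to -0.22, and null ageing 1 higher, 13 lower and medians of -0.27 to -0.23. The interaction gave 0 to 1 higher, 0 to 1 lower and medians of -0.04 to 0. The cause of the other changes was not tested. Signals of the 13 genes below the filter, all under 7 units, do not allow a comparison, and detection calls were not used here.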
